A study of Mus musculus with 4 samples.

Results

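The genes described here are the lectin, Fc and paired receptor genes of myeloid cells, taken by symbol as every row of the expression table that starts with Fcgr, Fcer, Clec, Cd300, Siglec, Pira, Pirb, Lilr, Trem, Sirp, Ms4a or Lair, with the endothelial gene *Clec14a* left out. The rule found 57 of 12661 genes. By their known signalling, 24 were sorted as activating receptors or chains, 11 as inhibitory receptors and 22 as other. The rule goes by name only, so it also takes in genes that are not myeloid receptors, such as *Clec3b* and *Clec11a*, which encode secreted proteins, and *Clec16a*, which encodes an intracellular one.

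The libraries were made from tissue outside the femoral arteries (FAs), mainly perivascular adipose tissue (PVAT). The mice were wild type C57BL/6 females, ovariectomized and 11 weeks old, and were killed 48 h after wire injury of the FA (wire diameter 0.38 mm) or after sham operation. Each group had 2 libraries, and whether each came from 1 mouse is not stated in the sources used here, so p-values measure the spread between these libraries. The tissue is a mixture, in which more cells of a type and more RNA per cell cannot be told apart. The 6 adipocyte markers checked were in the table.

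Myeloid cells read their surroundings through pairs of receptors with similar outer parts and opposite tails. Activating receptors, among them most Fc gamma receptors, Mincle, the TREM receptors and PIR-A, mostly carry no signal of their own and dock to the adaptors FcR gamma chain (*Fcer1g*) or DAP12 (*Tyrobp*), whose tyrosine motifs (ITAMs) recruit the kinase SYK. Inhibitory receptors, among them Fc gamma RIIb, PIR-B, SIRP alpha and LAIR-1, hold tyrosine motifs (ITIMs) in their own tails that recruit the phosphatases SHP-1 (*Ptpn6*) and SHIP-1 (*Inpp5d*). In injured tissue these receptors sense immune complexes, dying cells, lipids, sialic acids and collagen.

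The promoters of 42 of the 57 genes were found in RefSeq (build GRCm38.p6, from 250 bases before to 50 bases after the annotated start). Several of the genes moved together, so 5 promoters are shown of genes that the results below turn on: the 2 with the highest differences, Mincle (*Clec4e*), and the paired receptor genes *Pirb* and *Pira1*. Capitals mark GAGGAA, the core bound by the myeloid factor PU.1, the longer form GAGGAAGT, which contains it, and the AP-1 motif TGANTCA, each on either strand.

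Cd300lf, chr11:115133943-115134242, minus strand: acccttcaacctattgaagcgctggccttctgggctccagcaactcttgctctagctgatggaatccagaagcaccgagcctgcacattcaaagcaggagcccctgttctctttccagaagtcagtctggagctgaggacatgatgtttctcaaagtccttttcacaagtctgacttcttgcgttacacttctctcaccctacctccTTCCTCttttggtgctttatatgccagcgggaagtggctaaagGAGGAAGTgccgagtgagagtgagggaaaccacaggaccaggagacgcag

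Clec12a, chr6:129349994-129350293, plus strand: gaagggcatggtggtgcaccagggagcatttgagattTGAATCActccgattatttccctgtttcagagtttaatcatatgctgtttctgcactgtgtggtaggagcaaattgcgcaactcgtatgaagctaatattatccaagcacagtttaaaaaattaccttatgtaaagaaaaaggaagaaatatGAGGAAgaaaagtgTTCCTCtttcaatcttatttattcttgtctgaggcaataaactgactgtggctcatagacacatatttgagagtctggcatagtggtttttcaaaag

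Clec4e, chr6:123289822-123290121, minus strand: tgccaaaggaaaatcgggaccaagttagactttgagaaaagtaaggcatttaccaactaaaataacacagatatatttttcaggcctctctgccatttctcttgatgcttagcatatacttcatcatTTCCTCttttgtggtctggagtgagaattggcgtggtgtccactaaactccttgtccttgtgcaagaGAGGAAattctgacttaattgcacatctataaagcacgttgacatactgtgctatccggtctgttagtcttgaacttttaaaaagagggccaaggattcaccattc

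Pirb, chr7:3720333-3720632, minus strand: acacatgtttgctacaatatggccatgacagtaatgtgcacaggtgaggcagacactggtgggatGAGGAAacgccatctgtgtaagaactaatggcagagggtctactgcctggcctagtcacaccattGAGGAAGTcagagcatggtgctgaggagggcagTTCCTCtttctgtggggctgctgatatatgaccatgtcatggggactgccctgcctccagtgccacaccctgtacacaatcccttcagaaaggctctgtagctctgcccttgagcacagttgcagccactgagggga

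Pira1, chr7:3739868-3740167, minus strand: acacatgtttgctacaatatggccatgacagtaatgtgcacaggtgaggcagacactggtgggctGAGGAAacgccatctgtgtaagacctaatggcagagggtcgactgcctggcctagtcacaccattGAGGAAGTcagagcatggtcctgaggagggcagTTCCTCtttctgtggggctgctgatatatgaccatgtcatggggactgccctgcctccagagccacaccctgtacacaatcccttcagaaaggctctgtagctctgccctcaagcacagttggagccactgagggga

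At least 1 match to GAGGAA was found in the promoters of 64.3% of these 42 genes and of 31.3% of all 27025 genes with a window. GAGGAAGT was found in 14.3% and 3.69% of them, and TGANTCA in 14.3% and 8.97%. *Fcer1g*, *Fcgr2b* and *Cd300lb* held none of these motifs in the window. The *Pirb* and *Pira1* promoters, which belong to an inhibitory and an activating gene, differed at 8 of 300 bases (97.3% identical) and held the same matches at the same places. Of the 6 genes of these families with GAGGAAGT, *Pirb*, *Pira1* and *Lilra6* held it within a shared stretch of bases. It lay 120, 120 and 150 bases before the start, and these are not separate matches. A match is a string of letters, not a measured site.

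The main comparison was injury with sham. Values are signed, on a log-like scale whose base and zero point are not stated, so differences are given in deposited units, without fold changes, and a level cannot be compared between genes. By limma with Benjamini-Hochberg adjustment over all 12661 genes, 29 of the 57 genes were called higher and 0 lower, with 43 at an unadjusted p-value under 0.05. Over all genes tested 7.43% were called, 3.76% higher and 3.67% lower, and 3739 of the 12661 had an unadjusted p-value under 0.05. The called receptor genes included 14 of 24 activating and 10 of 11 inhibitory members. Both injury libraries lay above both sham libraries in 44 of the 57 genes, against 31.6% of all genes, and below them in 2, against 30.3% of all genes. The median difference was 1.58 over the 57 genes and 0.01 over all genes. Of these genes, 19 were among the 100 highest differences in the table.

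The number of calls rested on which libraries entered the fit. Without sham replicate 1 and without sham replicate 2, limma called 0 of the 57 genes. Without injury replicate 1 it called 20, and without injury replicate 2 it called 43 higher and 1, *Clec11a*, lower. Over all 12661 genes these fits called 0, 1, 284 and 1790 in the same order, so the number of calls moved across the whole table. In these fits the lone library of a group is assumed to vary like the other group. The median difference was less affected and lay between 1.24 and 1.98.

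**Figure D1:**
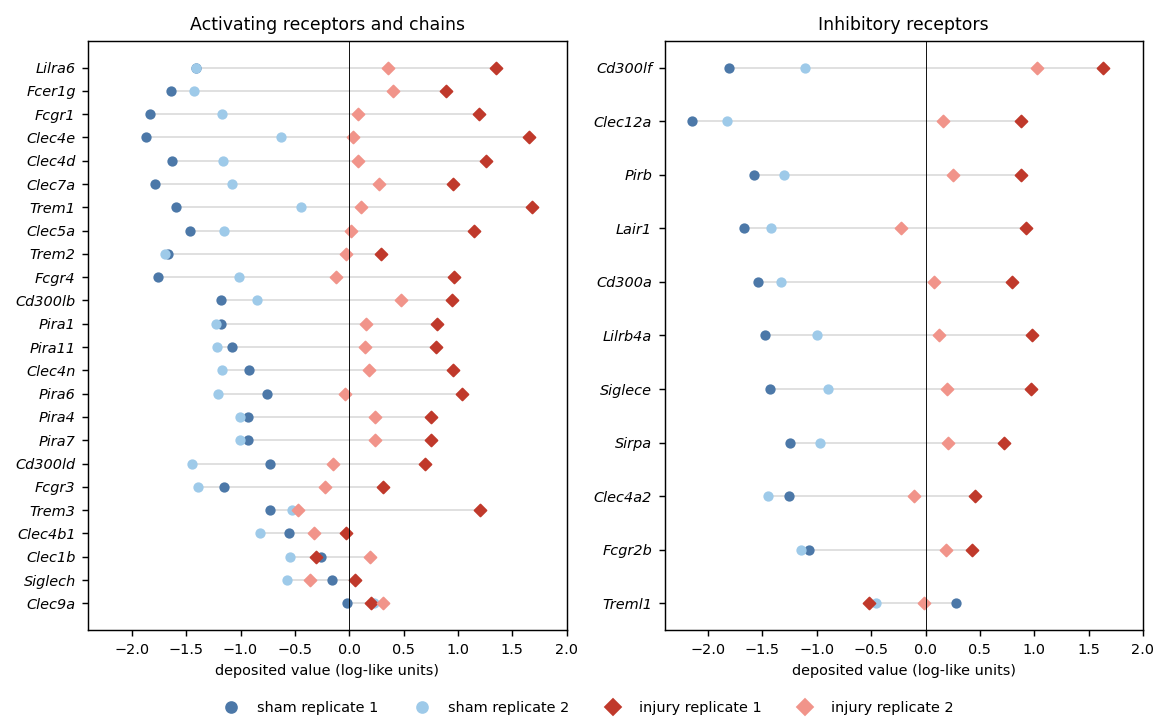
Deposited values (horizontal axis, log-like units) of the 24 activating (left) and 11 inhibitory (right) genes, one point per library, ordered by their difference. In 21 activating and 10 inhibitory genes both injury libraries lie to the right of both sham libraries, and injury replicate 1 lies farther out than injury replicate 2 in 22 of the 24 and 10 of the 11.

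As classes, activating and inhibitory receptors had nearly the same median difference. It was 1.65 for the 24 activating and 1.79 for the 11 inhibitory genes, a gap of -0.14 (activating minus inhibitory). With each library left out in turn the gap ran from -0.40 to 0.00035. The difference between the counts of called activating and inhibitory genes was not tested. Of the 10 activating genes without a call, 7 still had both injury libraries above both sham libraries. The median standard error was 0.26 for the activating and 0.27 for the inhibitory genes. With only the receptors of sure class, the medians were 1.71 for 20 activating and 1.79 for 9 inhibitory genes.

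The Fc receptors bind the constant part of antibodies. *Fcer1g*, the shared ITAM chain, was at -1.64 and -1.43 in the sham libraries and at 0.89 and 0.40 in the injury libraries. It rose by 2.18 (standard error, SE, 0.21, limma adjusted p = 0.0285), the highest of the family. *Fcgr1*, the high-affinity IgG receptor, was at -1.83 and -1.17 after sham operation and at 1.20 and 0.08 after injury. It was called higher, by 2.14 (SE 0.41, limma adjusted p = 0.0449), with a wider spread in both groups. *Fcgr3*, an activating low-affinity IgG receptor, was at -1.15 and -1.39 in sham tissue and at 0.31 and -0.22 in injured tissue. *Fcgr2b*, its inhibitory counterpart, was at -1.07 and -1.14 in sham tissue and at 0.43 and 0.19 in injured tissue. The activating and the inhibitory member rose by similar amounts, 1.31 (SE 0.22, adjusted p = 0.0339) and 1.42 (SE 0.15, adjusted p = 0.0285), both from limma. *Fcgr4*, a receptor of IgG2 antibodies, was at -1.76 and -1.01 in sham tissue and at 0.96 and -0.12 in injured tissue. The groups of *Fcgr4* did not overlap, but its difference of 1.81 missed the threshold (SE 0.42, limma adjusted p = 0.0606). *Fcgrt*, the neonatal Fc receptor that recycles IgG and albumin, was at 0.11 and 0.11 after sham operation and at -0.14 and 0.28 after injury. Its groups overlapped, and the 95% interval of its difference ran from -0.49 to 0.41.

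*Fcgr2b*, *Fcgr4*, *Fcgr3* and *Fcer1g* lie together on chromosome 1 of mm9, from 172890689 to 173164496, whereas *Fcgr1* is on chromosome 3 from 96086832 to 96098179. The Fc gamma receptors are similar in sequence, and reads shared between them could have been split or dropped by the counting.

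The C-type lectins were the largest family, with 19 genes, of which 9 were called higher. Among the activating ones, *Clec7a* (Dectin-1, the beta-glucan receptor) was at -1.79 and -1.08 in sham tissue and at 0.96 and 0.27 in injured tissue. *Clec4d* (MCL) was at -1.63 and -1.16 in sham tissue and at 1.26 and 0.08 in injured tissue. *Clec5a* (MDL-1, which docks to DAP12) was at -1.47 and -1.15 after sham operation and at 1.14 and 0.02 after injury. In all 3 the groups were apart and injury replicate 1 was the higher injury library. They rose by 2.05, 2.07 and 1.89 (limma adjusted p = 0.0323, 0.0461 and 0.0468 in that order). *Clec5a* was no longer called under limma's robust prior (adjusted p = 0.0503). *Clec4n* (Dectin-2, the mannan receptor) rose by 1.61 (SE 0.28, limma adjusted p = 0.0368), from -0.92 and -1.17 to 0.96 and 0.18.

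*Clec4e* encodes Mincle, a receptor of mycobacterial glycolipids and of a protein released by dying cells. It was at -1.87 and -0.63 in sham tissue and at 1.65 and 0.03 in injured tissue. Its sham libraries were 1.24 apart, the widest gap between sham libraries among the activating genes, and its injury libraries 1.62 apart. Its difference of 2.09 had a SE of 0.63 and was not called (limma adjusted p = 0.0999). With a library left out it ran from 1.283 to 2.90, the lowest without injury replicate 1 and the highest without injury replicate 2, where it was called (limma adjusted p = 0.0240).

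Both inhibitory lectins were called. *Clec12a* (MICL, a receptor of uric acid crystals) was at -2.14 and -1.83 after sham operation, and at 0.88 and 0.16 after injury. It rose by 2.50 (SE 0.27, limma adjusted p = 0.0285), the seventh highest in the table. *Clec4a2* (DCIR1) rose from -1.25 and -1.45 to 0.46 and -0.11, by 1.53 (SE 0.22, limma adjusted p = 0.0301). Its relatives *Clec4a1* and *Clec4a3*, not assigned to either class, rose by 2.06 and 2.07, both with an adjusted p-value of 0.0285 from limma. *Clec4a1* was at -1.45 and -1.28 after sham operation and at 1.03 and 0.37 after injury. *Clec4a3* was at -1.40 and -1.44 after sham operation and at 1.03 and 0.28 after injury.

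*Clec10a*, the endocytic galactose-type lectin MGL1 of alternatively activated macrophages, was the only called gene of the 57 whose higher injury value was that of replicate 2. It was at -1.02 and -1.10 in sham tissue and at -0.14 and 0.38 in injured tissue. It rose by 1.176 (SE 0.21, limma adjusted p = 0.0370), the lowest of the 29 called genes.

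Beside *Clec4e*, 9 further lectins were not called. *Clec4b1*, an activating member, had a difference of 0.51. *Clec1b* (CLEC-2, the podoplanin receptor of platelets) and *Clec9a* (of type 1 conventional dendritic cells) had overlapping groups, with differences of 0.34 and 0.15. *Clec1a*, found in endothelial and myeloid cells, and *Clec11a*, a secreted growth factor, were the 2 genes with both injury libraries below both sham libraries. *Clec1a* had values of 0.22 and 0.65 after sham operation and of 0.03 and 0.06 after injury, and *Clec11a* had values of 0.03 and 0.20 and of -0.98 and -0.03. The differences, -0.39 and -0.62, were not called (limma adjusted p = 0.224 and 0.262). With a library left out *Clec1a* ran from -0.60 without sham replicate 1 to -0.18 without sham replicate 2. *Clec11a* ran from -1.10 without injury replicate 2, where it was called, to -0.145 without injury replicate 1. *Clec3b*, which encodes the plasminogen-binding protein tetranectin, overlapped between groups, at 0.46 and -0.06 after sham operation and at -0.72 and 0.30 after injury. *Clec2d*, *Clec2i* and *Clec16a* had differences of -0.05, 0.78 and -0.04. *Clec2i* shares 3539 bases of its span with *BC035044* on the other strand, and *Clec16a* 14292 bases with *Gm15558*, so their values are uncertain.

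**Figure D2:**
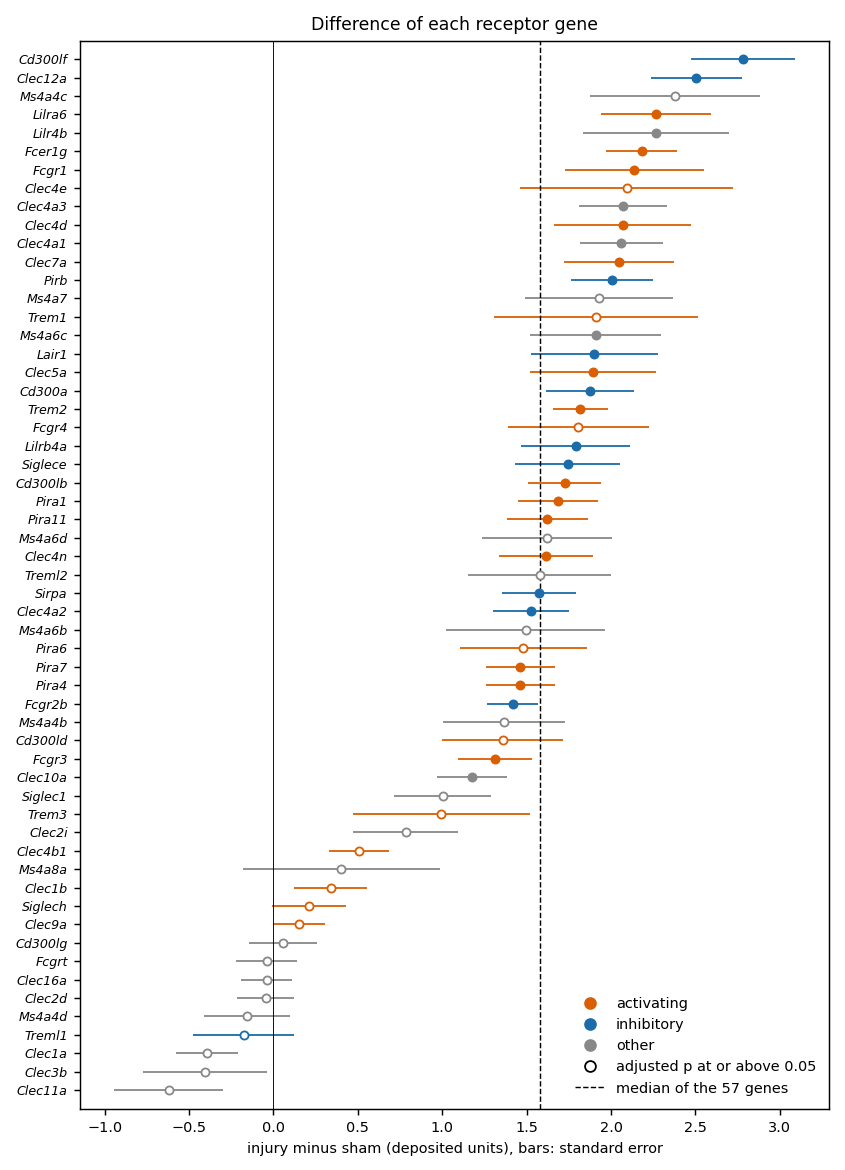
Injury minus sham difference (horizontal axis, deposited units) of each of the 57 genes, with its SE from limma as the bar. Filled points are the 29 called genes (adjusted p-value below 0.05), and the dashed line is the median of the 57 genes, 1.58.

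The CD300 receptors bind lipids of cell membranes, such as phosphatidylserine and ceramide. *Cd300lf* (CLM-1, sorted as inhibitory for its ITIMs although activating motifs are also known) was at -1.81 and -1.11 in sham tissue and at 1.63 and 1.02 in injured tissue. The injury libraries lay more than 2 units above both sham libraries. The rise of 2.78 (SE 0.31, limma adjusted p = 0.0285) was the second highest in the table. *Cd300a*, an inhibitory phosphatidylserine receptor, was at -1.54 and -1.33 after sham operation and at 0.79 and 0.08 after injury. *Cd300lb*, an activating receptor that docks to DAP12, was at -1.17 and -0.85 after sham operation and at 0.95 and 0.48 after injury. These 2 genes rose by 1.88 (SE 0.26, adjusted p = 0.0291) and 1.72 (SE 0.22, adjusted p = 0.0285), from limma. *Cd300ld*, an activating member, was at -0.72 and -1.44 in sham tissue and at 0.70 and -0.15 in injured tissue, and its difference of 1.36 was not called (limma adjusted p = 0.0787). *Cd300lg*, an adhesion molecule of endothelium, overlapped between groups, with a difference of 0.05 and a 95% interval from -0.45 to 0.56. On mm9, *Cd300lf* lies on chromosome 11 from 114977528 to 114995306 on the minus strand, inside the span of *Rab37* on the plus strand, which is not in the table. *Cd300lb* shares 401 bases with the pseudogene *Gm11699* on the other strand. Whether the counting used strand is not given in the sources used here, so reads of these pairs could have been mixed.

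In the paired immunoglobulin-like receptors and their LILR relatives, 8 of 9 genes were called. *Pirb*, the inhibitory receptor of MHC class I, was at -1.58 and -1.30 after sham operation and at 0.88 and 0.26 after injury, a difference of 2.01 (SE 0.24, limma adjusted p = 0.0285). Among the activating PIR-A genes, *Pira1* was at -1.181 and -1.22 and at 0.81 and 0.16, and *Pira11* at -1.08 and -1.22 and at 0.80 and 0.14. Their differences were 1.69 and 1.62 (adjusted p = 0.0291 and 0.0301 from limma). *Lilra6*, a symbol used for a PIR-A gene, was at -1.41 in both sham libraries and at 1.35 and 0.36 after injury, and rose by 2.27 (SE 0.33, limma adjusted p = 0.0294). *Pira6* was not called (difference 1.48, adjusted p = 0.0716 from limma), but was without injury replicate 2 (2.02, limma adjusted p = 0.0103), and without injury replicate 1 its difference fell to 0.95. *Lilrb4a* (the inhibitory receptor gp49B) and its close copy *Lilr4b* (gp49A) rose by 1.79 and 2.26 (limma adjusted p = 0.0397 and 0.0441). *Lilrb4a* was at -1.47 and -0.998 after sham operation and at 0.98 and 0.13 after injury. *Lilr4b* was at -1.95 and -1.17 after sham operation and at 1.26 and 0.15 after injury, so that in both genes the groups were apart.

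*Pira4* and *Pira7* had identical values in every library, -0.93 and -1.01 after sham operation and 0.75 and 0.24 after injury, and count as 1 measurement. Over all genes 28 rows, in 14 sets, are identical to another row, and this is the only set with a gene of these families. *Pira1* and *Pira11* were not identical but differed by at most 0.10 in any library. The PIR genes are close copies of each other on chromosome 7, as the *Pirb* and *Pira1* promoters printed above show for 300 bases, so how far their rows are separate measurements is uncertain. The same holds for *Lilrb4a* and *Lilr4b*, and for the close relatives among the MS4A and Clec4a genes. With identical rows counted once limma called 28 genes, and with the 5 rows named Pira replaced by their mean it called 26, of which 11 were activating.

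Among the TREM receptors, *Trem2*, a lipid receptor of macrophages, was at -1.67 and -1.70 in sham tissue and at 0.30 and -0.03 in injured tissue. *Trem1*, an amplifier of neutrophil and monocyte responses, was at -1.59 and -0.44 in sham tissue and at 1.68 and 0.11 in injured tissue. Their differences were 1.82 and 1.91 and their standard errors 0.16 and 0.60, and *Trem2* was called (limma adjusted p = 0.0285) and *Trem1* was not (limma adjusted p = 0.1102). With a library left out *Trem2* ran from 1.66 to 1.98. *Trem1* ran from 1.12 without injury replicate 1 to 2.70 without injury replicate 2, where it was called (limma adjusted p = 0.0241). *Trem3* had injury values of 1.20 and -0.47, the widest gap between the injury libraries among the 57 genes, beside sham values of -0.73 and -0.53. *Trem3* was not called (difference 0.99, limma adjusted p = 0.273), and ran from 0.16 to 1.83 in the same pair of fits, with a call in the latter (limma adjusted p = 0.00796). *Treml2* had a difference of 1.58 and was not called (limma adjusted p = 0.0809), and ran from 0.96 to 2.19 in that pair, again called in the latter (limma adjusted p = 0.0106). *Treml1*, a platelet receptor with an ITIM, was the only inhibitory gene without a call. Its values of 0.28 and -0.46 after sham operation and of -0.52 and -0.01 after injury overlapped.

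The remaining inhibitory receptors all rose. *Sirpa*, the receptor of the "do not eat me" signal CD47, was at -1.25 and -0.97 after sham operation and at 0.72 and 0.21 after injury, a difference of 1.58 (SE 0.22, limma adjusted p = 0.0291). *Lair1*, a collagen receptor, was at -1.67 and -1.42 and at 0.93 and -0.22, a difference of 1.90 (SE 0.38, limma adjusted p = 0.0468). *Siglece*, which binds sialic acids, was at -1.43 and -0.89 and at 0.97 and 0.20, a difference of 1.74 (SE 0.31, limma adjusted p = 0.0386). *Lair1* was near the threshold, and with limma's robust prior it had an adjusted p-value of 0.0504, so that it was no longer called. *Siglec1* (sialoadhesin, a macrophage adhesion receptor without an ITIM) was at -0.63 and -0.75 in sham tissue and at 0.72 and -0.11 in injured tissue, and was not called (limma adjusted p = 0.0898). *Siglech*, of plasmacytoid dendritic cells, overlapped between groups, with a difference of 0.21.

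The MS4A genes encode membrane proteins with several membrane spans, some of them typical of macrophages. In 6 of the 8 both injury libraries lay above both sham libraries, but 1 was called, *Ms4a6c*, at 1.91 (SE 0.39, limma adjusted p = 0.0487). It was at -1.70 and -1.29 in sham tissue and at 0.98 and -0.15 in injured tissue, and under limma's robust prior it was no longer called (adjusted p = 0.0522). *Ms4a4c* had the highest difference of the family, 2.38, at -1.90 and -1.06 in sham tissue and at 1.58 and 0.21 in injured tissue. It lay just outside the threshold (limma adjusted p = 0.0520) and was called with quantile normalization (0.0438) and with columns scaled to a common spread (0.0379). It was followed by *Ms4a7*, a macrophage gene (difference 1.93, adjusted p = 0.0587). *Ms4a4d*, at -0.25 and -0.15 after sham operation and at 0.0014 and -0.72 after injury, and *Ms4a8a* overlapped between groups, and *Ms4a8a* had sham values as far apart as 0.80 and -1.05.

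**Figure D3:**
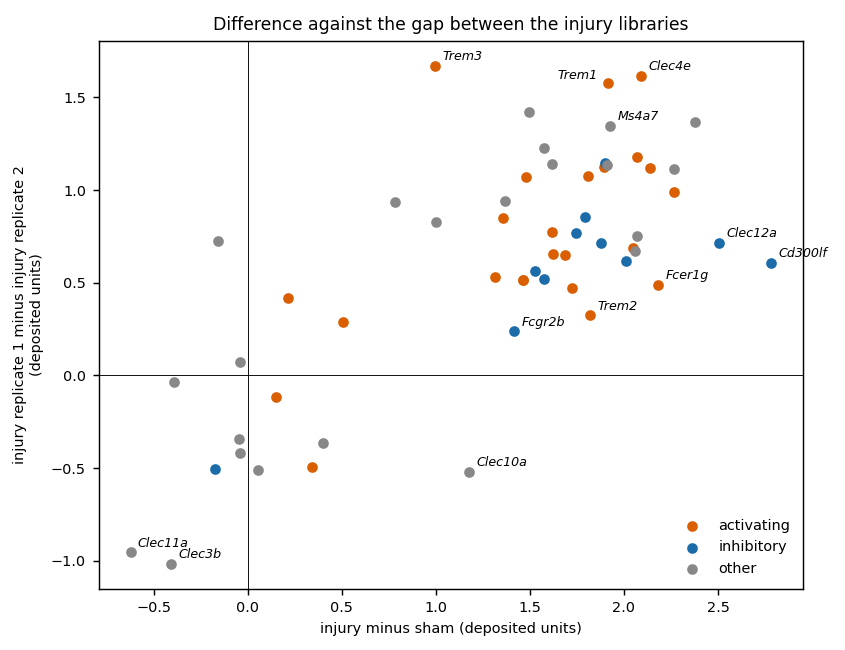
Injury minus sham difference (horizontal axis) against injury replicate 1 minus injury replicate 2 (vertical axis), both in deposited units, for the 57 genes by class. *Trem3*, *Clec4e* and *Trem1* have gaps of 1.67, 1.62 and 1.58 between the injury libraries, and *Trem2* and *Fcgr2b* gaps of 0.32 and 0.24.

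The injury libraries differed from each other across the genes. Injury replicate 1 was higher than injury replicate 2 in 46 of the 57 genes, by a median of 0.69 over all 57, where the median over all genes of the table was -0.01. In 16 genes the groups were apart but the step from the higher sham library to injury replicate 2 was smaller than the gap between the injury libraries. Of these 16, 7 were activating, 0 inhibitory and 9 other, 6 of them MS4A genes. The pattern was not limited to these families. It was found in 1167 of the 4003 genes of the whole table whose injury values all exceeded their sham values. Among the receptor genes it was found in 16 of 44 such genes, and the difference between these shares was not tested. All 6 neutrophil markers analysed were also higher in injury replicate 1 than in replicate 2, by a median of 1.35. Their mean was -1.08 and -0.64 in the sham libraries and 1.1785 and 0.07 in the injury libraries, 5 of the 6 were above sham in both injury libraries, and 1, *Retnlg*, was called higher. Their part in the spread of *Trem1*, *Trem3* and *Clec4e* was not tested.

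Genes that mark leukocytes as a whole moved by similar amounts. In all 6 of them the injury libraries lay above the sham libraries, with a median difference of 1.64 and a range from 1.48 to 2.02, and 4 were called, *Laptm5*, *Itgb2*, *Coro1a* and *Cd53*. Their mean was -1.15 and -1.11 in the sham libraries and 0.92 and 0.15 in the injury libraries. Of the receptor genes 25 had a difference above that median, 12 of 24 activating, 7 of 11 inhibitory and 6 of 22 other. Above the highest of the leukocyte markers, *Laptm5* at 2.02, were 12 receptor genes, led by *Cd300lf*, *Clec12a* and *Ms4a4c*. Macrophage markers had a median difference of 1.13 over 10 genes, with 4 called higher, *Csf1r*, *C1qa*, *C1qb* and *C1qc*. Some markers of myeloid cells had both injury libraries below both sham libraries without a call, the macrophage marker *Lyve1* (difference -1.50), the neutrophil marker *Lcn2* (-0.97) and the dendritic cell marker *Zbtb46* (-0.63), named after their values were seen. *Ccr2* was the 1 called gene of 6 monocyte markers. Mast cell markers (6 analysed, median difference -0.28) and the B cell marker *Cd79b* (-0.03) had no calls. A single gene was called higher each among 4 T and NK cell markers (*Klrb1c*) and 4 dendritic cell markers (*Itgax*). The lists of tissue markers had negative medians, with median differences of -2.18 over 5 smooth muscle, -0.78 over 5 fibroblast, -0.71 over 6 endothelial and -0.30 over 6 adipocyte genes, of which 4, 3, 1 and 1 were called lower. Among them *Pdgfra* (0.41), *Lep* (0.49) and *Pnpla2* (0.07) had positive differences, none of them called. The part of these tissue markers and of leukocyte number in the receptor differences was not tested.

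The genes of the signalling chain below the receptors were examined as lists. Of 17 ITAM signalling genes, 10 were called higher and 0 lower, with differences from 0.30 to 2.37 and a median of 1.55. In 16 of the 17 both injury libraries lay above both sham libraries. *Tyrobp*, the adaptor DAP12, was at -1.41 and -1.33 after sham operation and at 0.63 and -0.14 after injury, a difference of 1.62 (SE 0.27, limma adjusted p = 0.0338). *Syk*, the kinase that ITAMs recruit, rose by 1.52 (SE 0.28, limma adjusted p = 0.0424). *Card9*, an adaptor downstream of SYK in lectin signalling, rose by 1.60 (SE 0.20, limma adjusted p = 0.0285). *Lat2*, a membrane adaptor of ITAM signalling, rose by 2.37, the highest of the list.

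Of 8 ITIM signalling genes, 3 were called higher and 0 lower, with a median difference of 0.85. In 6 of the 8 both injury libraries lay above both sham libraries, and in 1 below them. *Ptpn6*, which encodes SHP-1, rose by 1.80 (SE 0.29, limma adjusted p = 0.0327), from -1.14 and -1.53 to 0.84 and 0.09. *Dok2*, an adaptor that dampens kinase signals, rose by 1.65. *Inpp5d*, which encodes SHIP-1, was called close to the threshold (limma adjusted p = 0.0493), at -0.94 and -0.71 in sham tissue and at 0.67 and 0.04 in injured tissue. A pair of genes of this list without a call was picked out after the values were seen. *Ptpn11*, the broadly expressed phosphatase SHP-2, was at 0.26 and 0.25 after sham operation and at 0.09 and 0.05 after injury, a difference of -0.19. *Cd47*, the ligand of SIRP alpha, was at -0.37 and -0.34 in sham tissue and at 0.28 and -0.31 in injured tissue, a difference of 0.34. The others of the list without a call, *Dok1*, *Dok3* and *Inpp5b*, had differences of 0.77, 0.93 and -0.08.

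**Figure D4:**
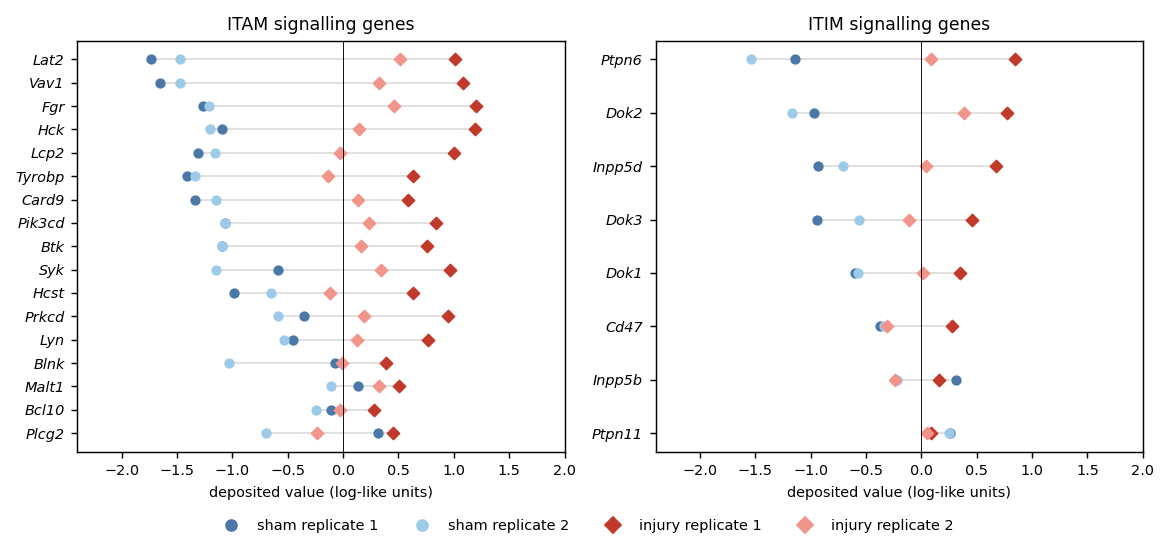
Deposited values (horizontal axis, log-like units) of 17 ITAM and 8 ITIM signalling genes, one point per library. *Lat2*, at 2.37, has the highest difference of both lists, and in *Ptpn11* both injury libraries lie below both sham libraries.

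Many of these genes are neighbours. Of the 57, 49 were placed on mm9 by their symbol, and 40 of these fell into 8 groups whose members lie within 1 Mb of the next. Neighbours did not all move alike. In the lectin group of chromosome 6 from 128837606 to 129422790, *Clec12a* (from 129292709) and *Clec7a* (to 129422790) rose by 2.50 and 2.05, and *Clec1a*, *Clec1b* and *Clec9a* between them had differences of -0.39, 0.34 and 0.15. The annotated spans of *Clec1a*, *Clec1b* and *Clec9a* overlap, *Clec1a* on the other strand, so their values are uncertain. In the other lectin group of chromosome 6, from 122871866 to 123239889, 5 of 7 genes were called, and *Clec4b1* at 0.51 stood lowest. The TREM group of chromosome 17 (48371903 to 48506499) held differences from -0.18 to 1.91, and the MS4A group of chromosome 19 (11141962 to 11679339) from -0.16 to 2.38.

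**Figure D5:**
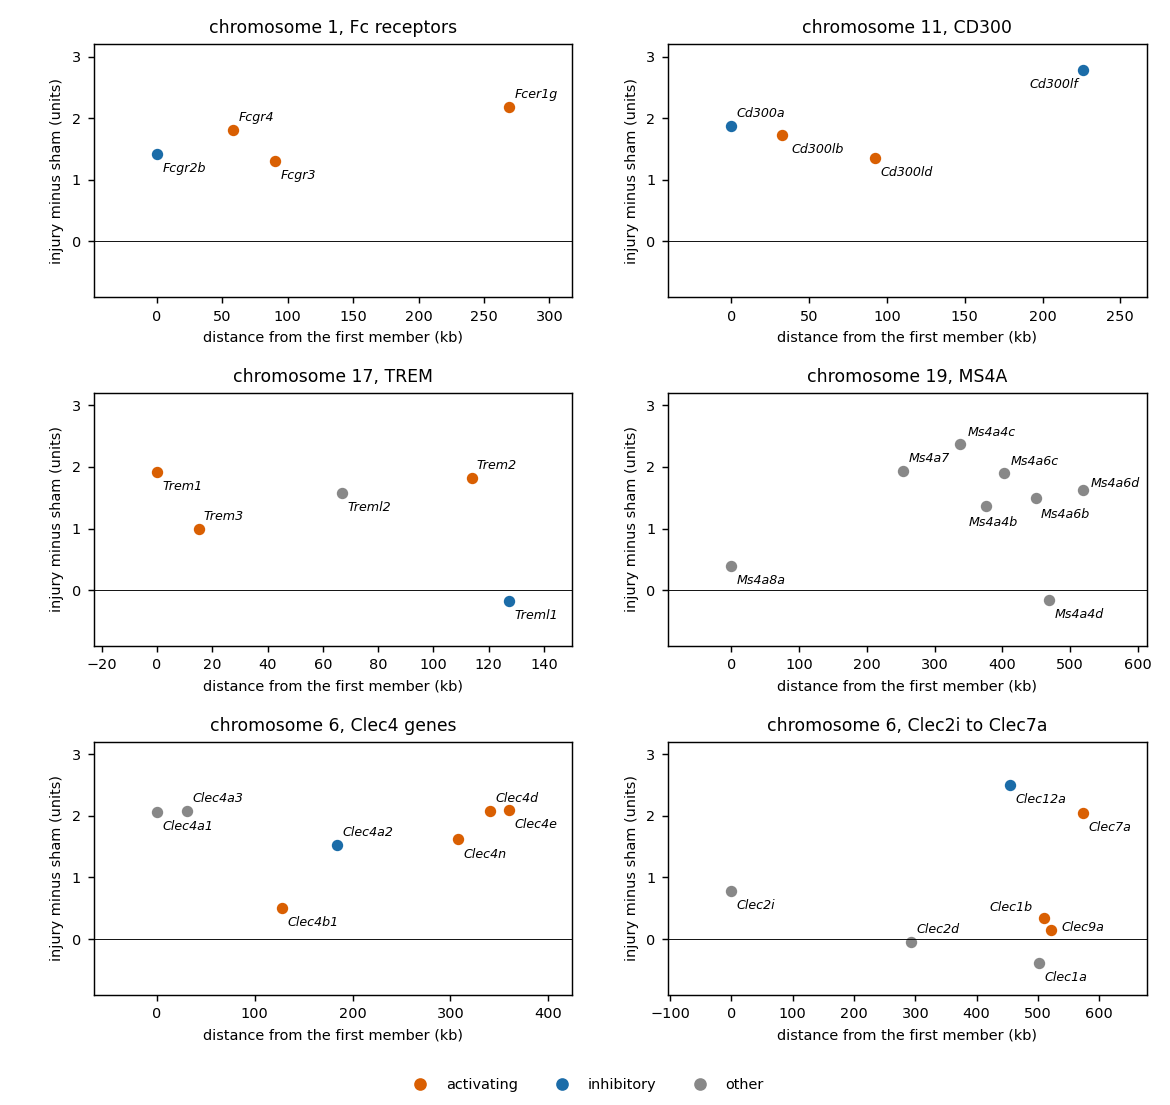
Injury minus sham difference (vertical axis, deposited units) of the genes in the 6 groups of 4 or more neighbours, by distance of their start from that of the first gene (kb). *Clec12a* and *Clec7a* lie at 2.50 and 2.05 with 3 genes near 0 between them.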

How the data were processed

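Bulk RNA-seq of 2 sham and 2 injury libraries was analysed. Per the labels and the study's methods, a stranded mRNA kit was used on 480 ng of RNA. The authors used FastQC 0.11.8, Cutadapt 1.18, Trimmomatic 0.39, STAR 2.6.0a with mm9, featureCounts and DESeq2 1.28.0 in R 3.6.0. The values the authors deposited are a signed score per gene and library (12661 genes, -2.27 to 6.45), not counts. How they were made, the base of the log-like scale and the gene filter are not given in the sources used here. Depth is therefore unknown, no interval or floor from counts is given, and no filter on low values was applied.

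Groups were compared with limma 3.58.1 in R 4.3.3 (group as the only term, all libraries, Benjamini-Hochberg adjustment over all genes, threshold 0.05, two-sided), which added 3.48 prior degrees of freedom to the 2 residual ones. An exact permutation test of 2 against 2 libraries cannot go below p = 0.333. The fit was also run on simulated data whose noise was independent between genes, which leaves out shifts shared by many genes of a library. No result here rests on it. Members, classes, lists and motifs were chosen with earlier results of these data known. The class of each receptor comes from textbook knowledge, and *Lilr4b* was added to the class table after its symbol was seen. Values of each library are given for called members, for the 5 highest and 5 lowest differences, for paired members of a family and for members below sham in both injury libraries. Some further members are given in the same way, chosen after their values were seen. Coordinates come from GENCODE vM1 (NCBIM37, mm9), promoters from RefSeq (GRCm38.p6). Alternatives were a replicate block, each library left out, a threshold of 0.1, other column scalings, a robust prior, identical or Pira rows counted once and sure classes only.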

Additional observations from a re-analysis of the deposited data

How the results depend on the processing

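No called receptor gene changed direction under the alternatives run. With the replicate block 24 members were called, 21 of them among the 29 called without it. *Lilr4b*, *Lilrb4a*, *Ms4a6c*, *Fcgr1*, *Clec5a*, *Clec4d*, *Lair1* and *Siglece* lost their calls. A call was gained by *Cd300ld*, *Pira6* and *Treml2* (limma adjusted p = 0.0358, 0.0365 and 0.0365). With the block 381 genes of the table were called higher and 303 lower. The replicate numbers form only 2 pairs (correlation of their deviations -0.094), so they were not taken as pairing the libraries. Quantile normalization, scaled columns, limma's robust prior, and identical or Pira rows counted once gave 26 to 30 called members. In these fits 438 to 545 genes of the table were called higher. At an adjusted p-value under 0.1, 39 members were called higher, with 1166 genes higher and 1151 lower in the table. In the fits without 1 library, genes called higher ranged from 0 to 943 and lower from 0 to 847, members called higher from 0 to 43 and lower from 0 to 1, activating receptors from 0 to 20 and inhibitory receptors from 0 to 10. The median differences ranged from 1.24 to 1.98 for all members, from 1.25 to 1.99 for activating and from 1.36 to 2.22 for inhibitory receptors, and from -0.40 to 0.00035 for the gap between the classes. *Clec1b*, *Clec9a*, *Siglech*, *Clec2i*, *Siglec1*, *Ms4a4b*, *Ms4a6b*, *Ms4a6d* and *Ms4a7*, none called with all libraries, also moved by over 1.5 times in these fits, with ranges of 0.091 to 0.59, 0.026 to 0.28, 0.0025 to 0.42, 0.31 to 1.25, 0.59 to 1.42, 0.90 to 1.84, 0.78 to 2.20, 1.05 to 2.19 and 1.25 to 2.601. In the same fits 8 members without a call turned sign, with ranges of -0.20 to 0.31 for *Cd300lg*, -0.16 to 0.080 for *Clec16a*, -0.22 to 0.12 for *Clec2d*, -0.91 to 0.10 for *Clec3b*, -0.25 to 0.17 for *Fcgrt*, -0.52 to 0.21 for *Ms4a4d*, -0.52 to 1.32 for *Ms4a8a* and -0.54 to 0.19 for *Treml1*. Depth is unknown, so what it limits cannot be given.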
